A study of Mus musculus with 17 samples.

Results

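The lysosomal cathepsins examined here are 9 proteases encoded by Ctss, Ctsb, Ctsd, Ctsz, Ctsl, Ctsh, Ctsc, Ctsa and Ctsk, with the addition of Cst3, which encodes the inhibitor cystatin C. They were found in the deposited count table by the Ensembl identifiers of these mouse symbols. Each symbol matched 1 row, so the set holds 10 of the 42687 genes of the table, and all 10 passed the filter on low counts. Transcript levels were measured by RNA sequencing of microvessels spun out of homogenised cerebral cortex, in 17 libraries. Mice of 10 to 11 months were used, either wild type (WT) or APP/PS1, a transgenic model of amyloid deposition. All mice were injected intraperitoneally at a dose of 10 mg/kg, at intervals of 2 days over 2 weeks, with a peptide. The inhibitor was gp91-ds-tat, a peptide against the superoxide-producing oxidase NOX2, and the control was sgp91-ds-tat. There were 5 libraries of WT mice with control peptide (WT SC), 5 of WT mice with inhibitor (WT NOX2), 2 of APP/PS1 mice with control peptide (APP SC) and 5 of APP/PS1 mice with inhibitor (APP NOX2). The labels write only SC and NOX2, which were read as control peptide and inhibitor. The promoter that drives the transgenes, and whether each library came from its own mouse, are not given in the sources used here, so p-values measure the spread between these libraries.

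Cathepsins are synthesised as inactive precursors, tagged with mannose 6-phosphate, delivered to endosomes and lysosomes and activated there at acid pH. Most are cysteine proteases, while cathepsin D is an aspartic protease and cathepsin A a serine carboxypeptidase. Together they degrade endocytosed and phagocytosed protein, and in the brain they are found in microglia and perivascular macrophages as well as in endothelial cells, astrocytes and neurons. Cystatin C is a small secreted protein that blocks cysteine cathepsins outside the cell.

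Total counts per library were between 7316503 and 17862965. The labelled vessel cell types were present: the summed level of 8 endothelial markers was 2422 to 4467 CPM (counts scaled to library size, with TMM factors), that of 9 pericyte and smooth muscle markers 1078 to 1863 CPM and that of 7 astrocyte markers 3024 to 5198 CPM. Markers of cells that the labels do not name were present as well. The 7 neuronal markers summed to 2499 to 4189 CPM, the 10 microglia markers to 184 to 380 CPM, and the 6 choroid plexus markers to 30.3 to 8159 CPM.

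Between WT and APP/PS1, 1 of the 10 genes passed the test, and it was Ctss, which encodes cathepsin S. Its level in APP/PS1 microvessels was 2.21-fold that in WT over both peptides. The other 8 cathepsins and Cst3 did not pass, with estimated log2 changes between -0.03 and 0.47. For the inhibitor peptide, 0 of the 10 genes passed in either genotype. Over all 18753 genes tested, 0.587% were called for genotype over both peptides by edgeR's quasi-likelihood test at an adjusted p under 0.05.

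**Figure D1:**
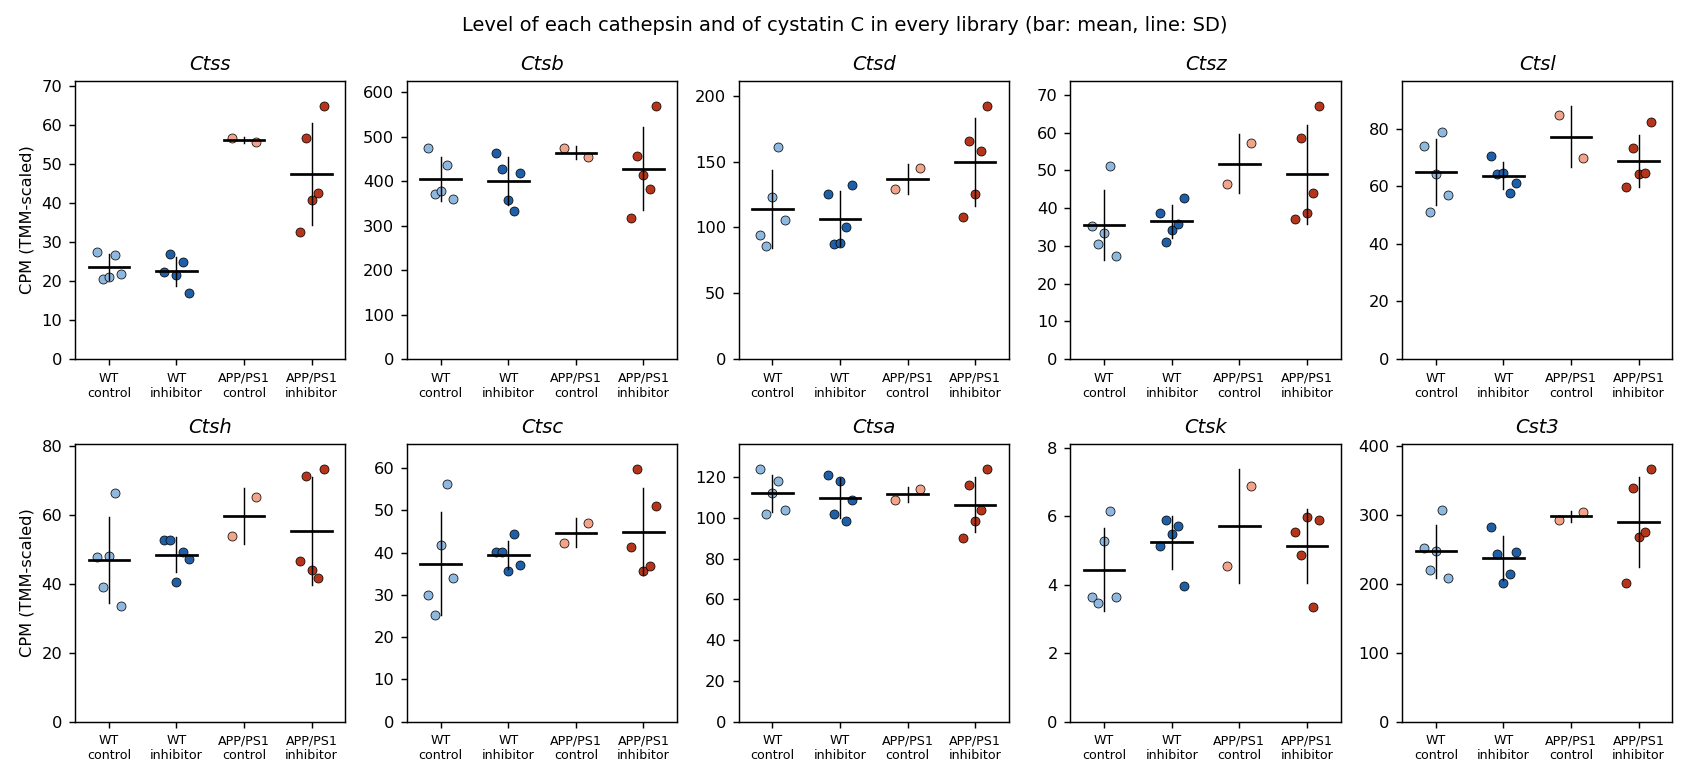
Level of each gene in every library, in CPM, for the 4 groups (points: libraries; bar: mean; line: SD; 5, 5, 2 and 5 libraries). For Ctss the 7 APP/PS1 libraries lie between 32.4 and 64.7 CPM and the 10 WT libraries between 16.8 and 27.5 CPM, while for the other 9 genes the genotypes overlap.

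Per kilobase of exon, which allows genes to be compared, Cst3 had the highest level, at 208 CPM per kilobase ± 38.2 (SD, n = 17). It was followed by Ctsb at 68.9 ± 10.4 CPM per kilobase and Ctsd at 53.2 ± 13.3. Ctsz, Ctss and Ctsa followed at 29 ± 7.69, 25.1 ± 11.4 and 23.3 ± 2.1 CPM per kilobase, and the place of Ctss among them differed by genotype. In WT, Ctss had a mean of 16.9 CPM per kilobase (12.4 to 20.3) and lay below Ctsa in all 10 libraries and below Ctsz in all 10. In APP/PS1, Ctss had a mean of 36.7 CPM per kilobase (23.9 to 47.7) and lay above Ctsa in all 7 libraries, while Ctsz was above it in 1 of 7. Ctsh and Ctsl came next at 11.4 ± 2.56 and 10.4 ± 1.42 CPM per kilobase, with Ctsh above Ctsl in 11 of 17 libraries. Ctsc and Ctsk were lowest, at 7.07 ± 1.52 and 3.33 ± 0.715 CPM per kilobase, and Ctsc was above Ctsk in all 17 libraries. With the length of the principal transcript in place of all exons, Ctsh moved to 31.8 ± 7.11 CPM per kilobase, the fourth place. Ctsa followed at 30.1 ± 2.71, above Ctsz and Ctss, and Ctsc stood above Ctsl. By these lengths the APP/PS1 mean was 36.8 CPM per kilobase for Ctss and 29.6 for Ctsa. Ctsa was at 24.7 CPM per kilobase or more in every library by these lengths. Ctss in replicate 1 of APP NOX2 was at 23.9 CPM per kilobase of exon, and its exon and principal transcript lengths are nearly equal (1358 and 1355 bases). By principal transcripts Ctss was therefore not above Ctsa in that library, so the order given above depends on the length used. The order in the other libraries was not counted with these lengths. On the CPM scale, Ctsb alone made up 48% ± 2.93 (SD, n = 10) of the summed level of the 9 cathepsins in WT and 45.1% ± 2.01 (SD, n = 7) in APP/PS1.

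Among the cysteine endopeptidases, Ctss (ENSMUSG00000038642; chr3:95526786-95556403, + strand, GRCm38) encodes cathepsin S, which stays active at neutral pH and trims the invariant chain of MHC class II in antigen-presenting cells. In WT SC its levels were 27.5, 20.6, 20.9, 26.7 and 21.8 CPM, and in WT NOX2 they were 22.3, 26.8, 21.6, 24.8 and 16.8 CPM. In APP SC they were 56.6 and 55.6 CPM, and in APP NOX2 they were 32.4, 56.5, 40.6, 42.4 and 64.7 CPM. Every APP/PS1 library was above every WT library, which held for 50 of the 18753 genes tested, or 0.267%. The spread was widest in APP NOX2, where replicate 1 was the lowest of the APP/PS1 libraries and replicate 5 the highest. Behind each value were 191 to 933 counts.

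Over both peptides, the APP/PS1 mean of Ctss was 49.8 CPM ± 11.5 (SD, n = 7) and the WT mean 23 CPM ± 3.41 (SD, n = 10), a log2 change of 1.14 ± 0.13 (SE, 95% interval 0.88 to 1.40, edgeR quasi-likelihood adjusted p = 3.59e-05). The log2 change was 1.25 ± 0.21 (SE) with control peptide, where the edgeR adjusted p was 0.0189 and 0.0533% of all genes were called. It was 1.08 ± 0.17 (SE) with inhibitor, where the edgeR adjusted p was 0.00564 and 0.181% of all genes were called. The comparison with control peptide rests on 2 APP/PS1 libraries. Its call was lost without replicate 1 or 2 of APP SC (edgeR adjusted p = 0.243 and 0.431) and without replicate 2, 3 or 5 of WT SC (edgeR adjusted p = 0.0652, 0.0789 and 0.0749), while the log2 change stayed between 1.21 and 1.32 when any 1 of the 17 libraries was left out.

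Ctsk, which encodes the collagen-degrading cathepsin K of osteoclasts, lies on the same strand next to Ctss, with 17424 bases between the genes. It was the lowest of the set, with 3.36 to 6.9 CPM and 33 to 91 counts per library, and its genotype ranges overlapped. Its log2 change over both peptides was 0.12 (95% interval -0.21 to 0.45). Their RefSeq promoter windows (GRCm38.p6, 250 bases before to 50 after the start site) are shown because Ctss passed the test and its neighbour did not, which by itself does not show that their changes differ. Capitals mark letters that match one of 3 searched motifs. The motifs were the core of the lysosomal CLEAR element, TCACGTGA, a PU.1-type site, GAGGAAGT, and an interferon-response type made of GAAA, any 2 bases and GAAA, each on both strands.
Ctss, chr3:95526536-95526835, + strand: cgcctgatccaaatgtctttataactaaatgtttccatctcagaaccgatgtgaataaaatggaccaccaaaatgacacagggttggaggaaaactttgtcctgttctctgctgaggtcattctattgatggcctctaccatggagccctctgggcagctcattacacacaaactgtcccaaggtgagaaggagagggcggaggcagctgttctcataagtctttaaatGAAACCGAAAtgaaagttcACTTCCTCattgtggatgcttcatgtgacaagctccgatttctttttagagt
Ctsk, chr3:95498960-95499259, + strand: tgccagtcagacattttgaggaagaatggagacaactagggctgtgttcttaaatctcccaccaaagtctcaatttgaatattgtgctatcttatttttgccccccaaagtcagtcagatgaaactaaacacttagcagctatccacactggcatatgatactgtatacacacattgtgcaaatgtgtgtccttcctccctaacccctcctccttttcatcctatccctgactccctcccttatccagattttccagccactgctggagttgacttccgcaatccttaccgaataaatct

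The Ctss window held the interferon-response type as GAAACCGAAA, with its first base at position -21 from the start site, where the start site is 0. It also held the PU.1 type as its reverse complement ACTTCCTC, with the first base at -2. The motifs do not overlap there. Of all 32851 promoter windows of the same length, 3.44% held the interferon-response type and 3.2% the PU.1 type. In the Ctsk window none of the 3 motifs was found. Such a match is a description of the letters and does not show that a factor binds.

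Ctsl, which encodes cathepsin L, a broad endopeptidase of lysosomes, was at 51.2 to 78.9 CPM in WT and 59.6 to 84.7 CPM in APP/PS1. The ranges overlapped, and the log2 change over both peptides was 0.16 ± 0.09 (SE, edgeR adjusted p = 0.84). An antisense gene, Gm47123, shares 1742 exon bases with Ctsl, and a pseudogene on the same strand, Gm49230, shares 395. Neither was in the table, and the use of strand in counting is not given in the sources used here. Strand would not separate reads of Gm49230 from those of Ctsl. The count of Ctsl may therefore hold reads of these genes as well.

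Ctsb, Ctsz, Ctsh and Ctsc encode cysteine cathepsins that cut from the ends of proteins, cathepsin B acting as an endopeptidase as well. Ctsb was at 332 to 475 CPM in WT and 318 to 568 CPM in APP/PS1. Both the lowest and the highest of the 17 libraries were APP NOX2 libraries, replicates 1 and 5. The log2 change over both peptides was 0.13 ± 0.10 (SE, 95% interval -0.08 to 0.35, edgeR adjusted p = 0.941). Ctsb shares 774 exon bases with Fdft1 on the opposite strand, which had 299 to 1046 counts against at least 2554 for Ctsb.

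Ctsz encodes cathepsin Z, also called cathepsin X, a carboxypeptidase of monocytes, macrophages and microglia. In WT SC its levels were 35.2, 30.6, 33.4, 51.1 and 27.4 CPM, and in WT NOX2 they were 38.7, 31.1, 34.3, 35.9 and 42.7 CPM. In APP SC they were 46.3 and 57.3 CPM, and in APP NOX2 they were 37, 58.5, 38.6, 44 and 67 CPM. Replicate 4 of WT SC was high among the WT libraries, and 3 of the 7 APP/PS1 libraries were above it. The log2 change over both peptides was 0.47 ± 0.13 (SE, 95% interval 0.19 to 0.75), with an edgeR p of 0.00232, or an adjusted p of 0.2 over all genes. Without replicate 4 of WT SC the log2 change was 0.53 and the edgeR adjusted p was 0.0493, just past the threshold.

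Ctsh encodes the aminopeptidase cathepsin H, which was at 33.6 to 66.4 CPM in WT and 41.6 to 73.4 CPM in APP/PS1 (log2 change 0.25 ± 0.14, SE, edgeR adjusted p = 0.84). Ctsc encodes cathepsin C, the dipeptidyl peptidase that activates granule serine proteases of immune cells. It was at 25.2 to 56.2 CPM in WT and 35.7 to 59.8 CPM in APP/PS1 (log2 change 0.21 ± 0.14, SE, edgeR adjusted p = 0.889). For both genes replicate 4 of WT SC was the highest WT library, and the genotype ranges overlapped.

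The make-up of the cysteine cathepsins was compared as the share of Ctss in the summed CPM per kilobase of the 7 cysteine cathepsin genes, which does not depend on library scaling. It was 12.3% ± 1.6 (SD, n = 10; 8.81 to 14.1%) in WT and 20.4% ± 1.36 (SD, n = 7; 18 to 22.2%) in APP/PS1. The ranges did not overlap. This share uses the same Ctss counts as the test above and adds no independent evidence.

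Ctsd encodes cathepsin D, the main aspartic protease of lysosomes. In WT SC its levels were 94.6, 85.8, 123, 161 and 106 CPM, and in WT NOX2 they were 125, 87.1, 88.5, 100 and 132 CPM. In APP SC they were 129 and 145 CPM, and in APP NOX2 they were 108, 166, 125, 158 and 192 CPM. The upper APP/PS1 libraries were the highest of all, with 2 of 7 above every WT library, and the rest lay within the WT range. The log2 change over both peptides was 0.41 ± 0.14 (SE, 95% interval 0.12 to 0.70), with an edgeR p of 0.00789, or an adjusted p of 0.415 over all genes. Ctsd shares 808 exon bases with Gm49369, a gene on the same strand that had 0 counts in every library. How reads in the shared bases were counted is not given in the sources used here, so the level of Ctsd is uncertain.

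Ctsa encodes cathepsin A, the serine carboxypeptidase that also protects beta-galactosidase and neuraminidase in the lysosome. It had the narrowest spread of the set relative to its mean (SD 9.02% of the mean, n = 17), at 98.5 to 124 CPM in WT and 90.2 to 124 CPM in APP/PS1. Its log2 change over both peptides was -0.03 (95% interval -0.18 to 0.12), the only estimate below 0 among the 10 genes. Ctsa shares 495 exon bases with Pltp on the opposite strand, which had 2088 to 7676 counts against at least 758 for Ctsa, so its level is uncertain. The promoter windows of Ctsd and of the second Ctsa entry are shown because they hold the CLEAR core, the motif bound by the lysosomal regulator TFEB, again in capitals.
Ctsd, chr7:142387778-142388077, - strand: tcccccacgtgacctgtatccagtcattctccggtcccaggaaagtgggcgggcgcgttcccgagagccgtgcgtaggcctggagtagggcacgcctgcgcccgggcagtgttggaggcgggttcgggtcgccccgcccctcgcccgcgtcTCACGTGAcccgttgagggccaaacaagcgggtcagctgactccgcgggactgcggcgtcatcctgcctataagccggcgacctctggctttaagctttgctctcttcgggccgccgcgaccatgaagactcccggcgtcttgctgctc
Ctsa, chr2:164833523-164833822, + strand: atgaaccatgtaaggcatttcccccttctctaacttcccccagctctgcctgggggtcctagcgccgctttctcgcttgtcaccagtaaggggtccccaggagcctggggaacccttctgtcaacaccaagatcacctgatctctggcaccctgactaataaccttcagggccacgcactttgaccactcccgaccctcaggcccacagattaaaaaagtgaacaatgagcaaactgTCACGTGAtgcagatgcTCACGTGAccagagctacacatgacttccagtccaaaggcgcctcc

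The core began at position -99 in the Ctsd window and at -13 and 4 in the Ctsa window, against 0.974% of all promoter windows with at least 1 match. RefSeq windows were at hand for 8 of the 10 genes, not for Ctsb and Ctsh. The window of Ctsc held the PU.1 type, as ACTTCCTC at -151, and those of Ctsz, Ctsl, Cst3 and the first Ctsa entry (chr2:164832622-164832921, + strand) held none of the 3 motifs.

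Cst3 encodes cystatin C, the gene with the highest level per kilobase in this set, which astrocytes and microglia express strongly. In WT SC its levels were 253, 221, 248, 307 and 208 CPM, and in WT NOX2 they were 283, 243, 202, 214 and 247 CPM. In APP SC they were 293 and 304 CPM, and in APP NOX2 they were 201, 339, 268, 276 and 367 CPM. The lowest of the 17 libraries was an APP/PS1 library, replicate 1 of APP NOX2, and 2 APP/PS1 libraries were above all WT libraries. The log2 change over both peptides was 0.28 ± 0.11 (SE, 95% interval 0.05 to 0.51), with an edgeR p of 0.0189, or an adjusted p of 0.599 over all genes. The ratio of Cst3 to the 7 cysteine cathepsins, both in CPM per kilobase, was 1.38 ± 0.0774 (SD, n = 10) in WT and 1.3 ± 0.0848 (SD, n = 7) in APP/PS1, with overlapping ranges (1.25 to 1.48 and 1.2 to 1.43). Of 7 astrocyte markers 1 was called for genotype over both peptides, Gfap (log2 change 1.20, edgeR adjusted p = 0.000125), and their summed level was 3024 to 4453 CPM in WT and 3122 to 5198 CPM in APP/PS1. The part of these cells in the level of Cst3 was not tested.

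For genotype over both peptides, 9 of the 10 estimates were above 0, against 50.7% of all genes tested, and their median log2 change was 0.23 against 0.002 over all genes. Before adjustment, 4 of the 10 genes (Ctss, Ctsz, Ctsd and Cst3) had p under 0.05 in edgeR, as had 6.38% of all genes. The 10 genes varied together between libraries, so these are not independent observations.

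**Figure D2:**
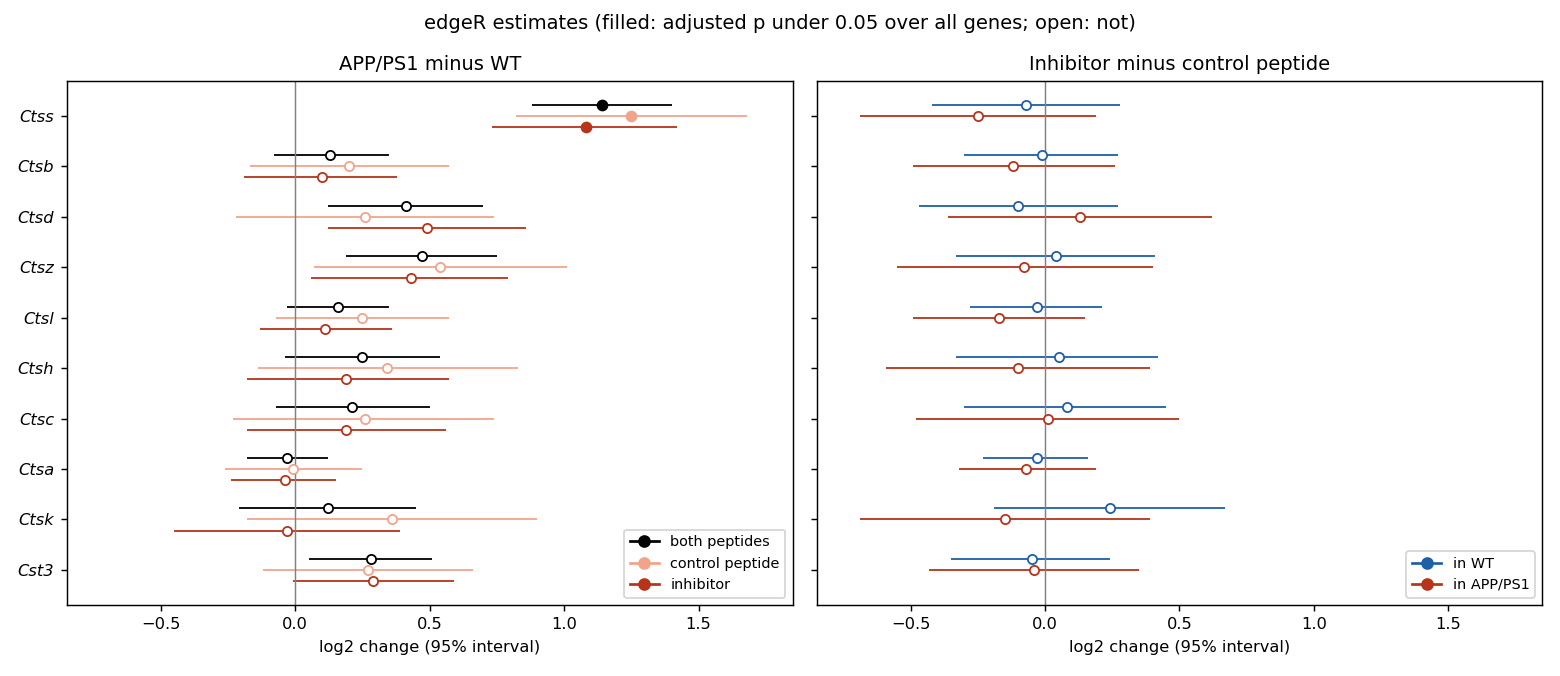
Estimated log2 change of each gene with its 95% interval, from edgeR, for APP/PS1 minus WT (left) and inhibitor minus control peptide (right); filled points passed an adjusted p of 0.05 over all genes. Ctss passed in all 3 genotype comparisons, at 1.14, 1.25 and 1.08, and each inhibitor interval includes 0.

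With the inhibitor, 0 of the 10 genes passed in WT, in APP/PS1, over both genotypes or for the interaction, the APP/PS1 inhibitor change less the WT one. In each of these 4 comparisons 0% of all genes were called by edgeR and 0 genes by DESeq2, and 0 of the 10 genes had an unadjusted p under 0.05 in edgeR. At that unadjusted level edgeR gave 252 of 18753 genes (1.34%) in WT, 338 (1.8%) in APP/PS1, 396 (2.11%) over both genotypes and 158 (0.843%) for the interaction. In WT the log2 changes of the 10 genes were between -0.10 for Ctsd and 0.24 for Ctsk. In APP/PS1 they were between -0.25 for Ctss and 0.13 for Ctsd. For Ctss the change with inhibitor was -0.07 (95% interval -0.42 to 0.28) in WT and -0.25 (-0.69 to 0.19) in APP/PS1, and their difference was -0.18 (-0.74 to 0.39). Over all 10 genes the interval bounds reached -0.47 and 0.67 in WT and -0.69 and 0.62 in APP/PS1. These are the widest bounds of the set. For Ctsa the interval was -0.23 to 0.16 in WT and -0.32 to 0.19 in APP/PS1. The inhibitor change in APP/PS1 and the genotype change with control peptide share the 2 APP SC libraries.

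The other genes of the cathepsin and lysosome pathway were examined in 8 lists. Of 17 other cathepsins and cathepsin-like genes, 5 passed the filter on low counts and 0 passed the test, and 8 of the 17 were at 0 counts in all libraries, among them the rodent cathepsins Ctsj, Ctsm, Ctsq and Ctsr. The smallest p was that of Ctsf, which encodes the widely expressed cathepsin F, with a mean of 57.6 CPM ± 7.29 (SD, n = 10) in WT against 50.1 CPM ± 7.27 (SD, n = 7) in APP/PS1 (edgeR adjusted p = 0.791). Ctsw, a cathepsin of cytotoxic lymphocytes, and the aspartic protease gene Napsa were near the limit of detection, at 0.695 and 0.944 CPM in APP/PS1 and 0.513 and 0.834 CPM in WT.

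Of 22 cystatins and other cathepsin inhibitors listed, 20 were in the table, 6 were tested and 1 was called. It was Cst7, which encodes cystatin F, an inhibitor that immune cells deliver to their own lysosomes and that acts on cathepsin C. In APP/PS1 its mean was 8.12 CPM ± 1.49 (SD, n = 7; 68 to 138 counts), against 0.177 CPM ± 0.21 (SD, n = 10; 0 to 6 counts) in WT (edgeR adjusted p = 1.98e-08). Its fitted log2 change of 5.51 depends on the prior count because the WT counts are near 0. Cst7 also belongs to the plaque-associated microglia list described below.

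Delivery and activation genes showed 0 calls among 10, including the mannose 6-phosphate receptor gene Igf2r (log2 change -0.10) and Nagpa, which uncovers the mannose 6-phosphate tag (0.14). The progranulin gene Grn, whose product supports cathepsin D, differed by 0.24 on the log2 scale (edgeR adjusted p = 0.661). Over the 33 other lysosomal hydrolases reported here, 16 estimates were above 0 and the median log2 change was -0.00. The smallest p-values among them were those of the glycosidase genes Hexa (log2 change 0.31, edgeR adjusted p = 0.4) and Gusb (0.26, 0.654) and of the nuclease gene Dnase2a (0.32, 0.636), and these 3 did not pass. Of 14 lysosomal membrane proteins, 1 was called, the macrophage glycoprotein gene Cd68, at 18.9 CPM ± 4 (SD, n = 7) and 9.91 CPM ± 2.39 (SD, n = 10) in APP/PS1 and WT (log2 change 0.95 ± 0.15, SE, edgeR adjusted p = 0.00186). The median of the membrane list was -0.00.

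The proton pump that acidifies lysosomes gave 0 calls among 18 subunits tested, with a median of 0.01. Its smallest p-values were those of Atp6v1c1 (log2 change 0.13), Atp6ap2 (-0.10) and Atp6v0a1 (-0.06). Of 6 regulators tested, 1 was called, Irf8, which had 7.64 CPM ± 1.54 (SD, n = 10) in WT against 14.9 CPM ± 3.14 (SD, n = 7) in APP/PS1 (log2 change 0.96 ± 0.14, SE, edgeR adjusted p = 0.000858). Irf8 encodes a transcription factor of microglia and macrophages, and not a general lysosomal regulator. The MHC class II genes, whose invariant chain is a substrate of cathepsin S, gave 0 calls among 8, with 2 estimates above 0 and a median of -0.12. The class II transactivator gene Ciita had a log2 change of -0.32 (95% interval -1.20 to 0.56), H2-DMb1 of 0.19 (-0.36 to 0.73) and H2-DMa of 0.08, and none passed. Ciita was near the limit of detection, at 0.506 CPM in APP/PS1 and 0.614 CPM in WT, and H2-DMb1 was low, at 1.76 and 1.61 CPM.

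**Figure D3:**
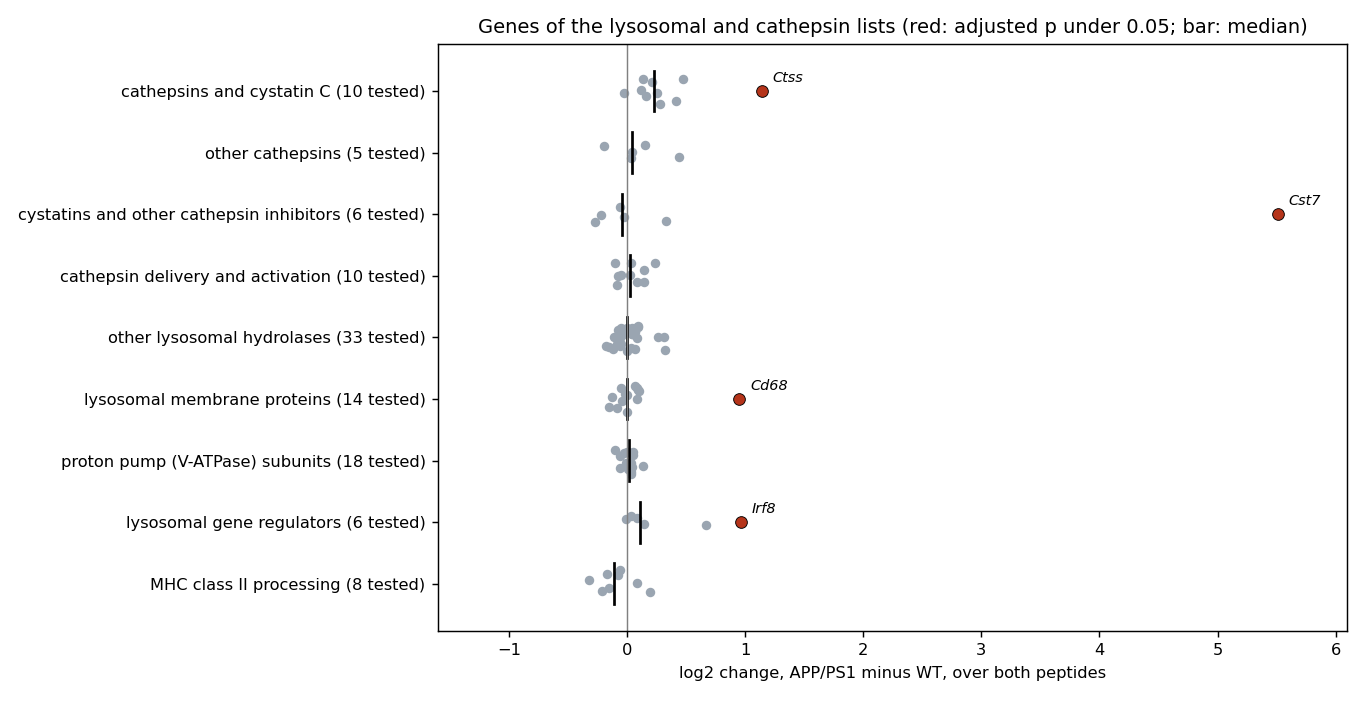
Log2 change of the tested genes reported here from the cathepsin set and 8 lysosomal lists, APP/PS1 minus WT over both peptides (points: genes, spread vertically at random; red: adjusted p under 0.05 in edgeR; bar: median of the list). The called genes shown are Ctss, Cst7, Cd68 and Irf8, and the medians of the lists other than the cathepsin set lie between -0.12 and 0.11.

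Microglia markers moved with the genotype. Of 10 such markers, 5 were called higher in APP/PS1 in edgeR (P2ry12, Cx3cr1, Csf1r, Siglech and Fcrls), 10 had estimates above 0, and the median log2 change was 0.66. Their summed level was 185 to 236 CPM in WT SC, 184 to 245 CPM in WT NOX2, 305 to 371 CPM in APP SC and 232 to 380 CPM in APP NOX2, and none was at 0 counts throughout. Of 15 markers of plaque-associated microglia, 8 were called higher and 14 had estimates above 0, with a summed level of 618 to 1068 CPM in WT and 803 to 1280 CPM in APP/PS1. The 7 markers of perivascular macrophages gave 0 calls, at 40.6 to 115 CPM in WT and 43.5 to 84.9 CPM in APP/PS1. In these bulk libraries, more cells of a type and more RNA per cell cannot be told apart.

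The mean log2 CPM of the 10 microglia markers was 3.55 to 4.01 in WT and 4.09 to 4.70 in APP/PS1, without overlap. With this score added as a covariate, the log2 change of Ctss was 0.43 ± 0.19 (SE) and its call ended (edgeR adjusted p = 0.31). Over all genes 2 were then called in place of 110, while 2756 had an unadjusted edgeR p under 0.05 in place of 1197. The estimates for Ctsb, Ctsd, Ctsz, Ctsl, Ctsh, Ctsc, Ctsa, Ctsk and Cst3 lay below 0, between -0.60 for Ctsh and -0.13 for Ctsk. That of Ctsa was -0.34, against -0.03 without the score. Since the score separates the genotypes, the parts of score and genotype cannot be told apart in this fit. The calls of Cd68 and Irf8 ended as well, at 0.69 and 0.59 on the log2 scale (edgeR adjusted p = 0.286 and 0.332), while Cst7 passed at 5.30 (0.000775).

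The log2 level of Ctss less this score, a measure chosen after the values were seen, averaged 1.17 ± 0.16 (SD, n = 7; 0.93 to 1.42) in APP/PS1 and 0.71 ± 0.20 (SD, n = 10; 0.26 to 0.89) in WT. The means differed by 0.46, and all 7 APP/PS1 libraries were above all 10 WT libraries, as they were for Ctss itself. For the other 9 genes the same difference was below 0, from -0.67 for Ctsa and -0.52 for Ctsb to -0.18 for Ctsz. The score itself averaged 4.44 in APP/PS1 and 3.81 in WT. A gene that rises less than the score therefore falls below 0 here by construction. For Ctsa, Ctsb and Cst3 (-0.37) the genotypes did not overlap on this scale. Before subtraction their ranges overlapped, with log2 changes of -0.03, 0.13 and 0.28, so the separation came with the score.

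Within each genotype, the levels of several of these genes followed the microglia score, among 20 relations computed (10 genes in 2 genotypes, with Benjamini-Hochberg adjustment over the 20 for each coefficient). In the 7 APP/PS1 libraries Ctss had r = 0.92 (exact permutation p = 0.00734, adjusted 0.0285) and rho = 0.75 (exact permutation p = 0.0663, adjusted 0.122), and r was 0.90 without the 2 libraries farthest from the median score. In the 10 WT libraries Ctss had r = 0.44 (permutation p = 0.2, adjusted 0.286) and rho = 0.64 (permutation p = 0.0546, adjusted 0.122), and r was 0.32 without the 2 farthest. For Ctss the relation passed in APP/PS1 by r but not by rho, and in WT by neither. Ctsb in WT had r = 0.84 (permutation p = 0.00259, adjusted 0.0129) and rho = 0.87 (permutation p = 0.002, adjusted 0.04), with r = 0.81 without the 2 farthest. In APP/PS1 Ctsb passed by r (0.84, exact permutation p = 0.0149, adjusted 0.0425) but not by rho (0.71, exact permutation p = 0.0881, adjusted 0.136), and r was again 0.81 without the 2 farthest. Ctsz in APP/PS1 had r = 0.96 (exact permutation p = 0.00159, adjusted 0.0106) and rho = 0.89 (exact permutation p = 0.0123, adjusted 0.0492), with r = 0.98 without the 2 farthest. By r, 3 of the 10 genes passed in WT (Ctsb, Cst3 and Ctsh) and 6 in APP/PS1 (Ctss, Ctsb, Ctsz, Ctsh, Ctsa and Cst3). By rho, 2 passed in WT (Ctsb and Cst3) and 3 in APP/PS1 (Ctsz, Ctsa and Cst3). The difference between genotypes was not tested. The levels and the score share the library scaling.

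**Figure D4:**
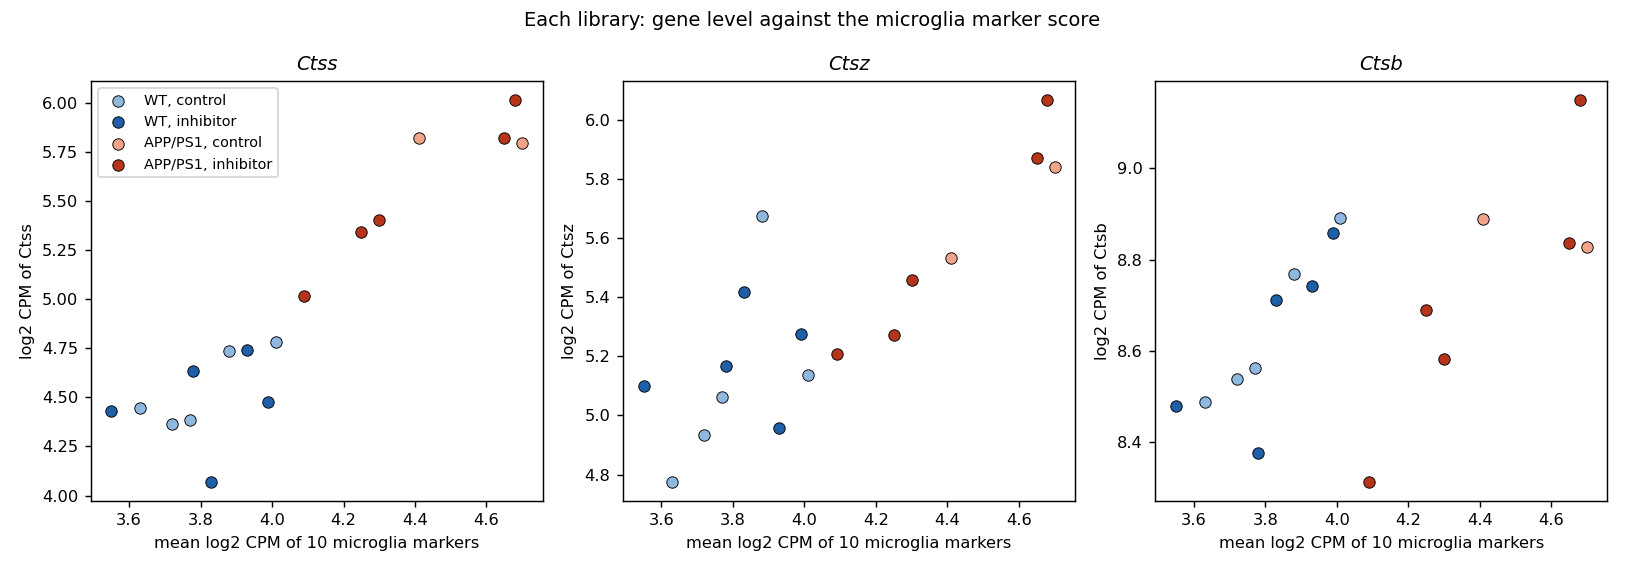
Log2 CPM of Ctss, Ctsz and Ctsb against the mean log2 CPM of 10 microglia markers, 1 point per library, coloured by group. The score of the APP/PS1 libraries (4.09 to 4.70) lies above that of the WT libraries (3.55 to 4.01), and within APP/PS1 libraries with a higher score have a higher level of Ctss (r = 0.92).

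The genes also varied together after the group means were subtracted. Over the 17 libraries all 45 pairs of the 10 genes had a Pearson correlation above 0 and 34 had one above 0.5, with a median of 0.66 and a range of 0.08 to 0.88. Cst3 had the highest median correlation with the others, 0.78, and the sparsely counted Ctsk the lowest, 0.27. These are descriptions over libraries that share their scaling. The same shares over all pairs of genes were not computed, so these values do not mark the set out from other genes. Single genes outside the set reached 0.98 with a member. Among 17214 genes with a mean of at least 1 CPM, the genes most like Ctss by this measure were Slco2b1 (0.93), Alcam (0.89) and C1qc (0.88). Slco2b1 encodes an organic anion transporter and C1qc a chain of complement C1q, which microglia produce. Those most like Ctsa were Csf1r (0.93), a receptor gene among the 10 microglia markers, and the lysosomal genes Psap (0.92) and Grn (0.91), and genes like Ctsb were Atp6ap1 (0.98) and Paqr7 (0.96). For Ctsh they were C130074G19Rik (0.97), Wwtr1 (0.97) and the endothelial cadherin gene Cdh5 (0.96), and for Ctsc Enpp1 (0.96), the endothelial phosphatase gene Ptprb (0.96) and Ttc28 (0.96). No theme of the nearest genes was tested. For Ctsd they were Atp5d (0.97), Glmp (0.95) and Mtch1 (0.95), and for Ctsz Syngr2 (0.94), Tram1 (0.92) and Tap2 (0.91). For Ctsl they were Phf23 (0.95), Lman1 (0.95) and Vasn (0.92), for Cst3 Tril (0.94), Surf4 (0.94) and Ganab (0.94), and for Ctsk Uhrf1 (0.86), Sae1 (0.84) and Pacsin2 (0.82).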

How the data were processed

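The authors deposited raw read counts per Ensembl gene, whole numbers for 42687 genes. The submitters' processing notes name cutadapt, STAR, HTSeq and DESeq2 and the builds GRCh37 and mm10, without roles or versions. Libraries were made with a stranded kit after depletion of ribosomal RNA, per the labels' protocols, and whether counting used strand is not given in the sources used here. Columns were matched to samples by title, and 20 further columns matched no sample and were not used. Identifiers were given symbols and exon lengths from a GENCODE annotation of GRCm38 (42250 matched, 437 did not), and promoter windows came from RefSeq (GRCm38.p6). No pair of libraries held identical values (0 pairs), and within-group pairs differed by a chi-square per degree of freedom of 5.37 to 91.4. Read depth sets the counting error only, since no molecular identifiers are described.

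Counts were tested in edgeR 4.0.16 (R 4.3.3) by the quasi-likelihood F test with TMM scaling and the filterByExpr filter, which kept 18753 genes, and p-values were adjusted by Benjamini-Hochberg over all of them (threshold 0.05). All 17 libraries entered each fit, since APP SC has 2. A model of group means gave the contrasts, and an additive model gave each effect over both levels of the other factor. Standard errors came from the estimate and its F statistic. Log2 levels used a prior count of 2. The code was tested on simulated data. Alternatives were DESeq2 1.42.0 (its test, and its size factors in edgeR), 2 other filters, fits of the compared groups alone, a microglia score as covariate, plain library size for levels, and leaving out each library in turn. The members and gene lists were chosen with earlier results of these data known. The text names all 10 members, the genes of each pathway list that passed for genotype over both peptides or otherwise up to 3 with the smallest p, and for each member the 3 genes with the most similar residuals. Marker genes named singly were chosen after their values were seen. Some genes that this rule selects, 1 that passed among them, are not reported here, and list counts are over the genes reported.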

Additional observations from a re-analysis of the deposited data

How the results depend on the processing

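For genotype over both peptides, 110 genes were called in the whole table, 182 by the DESeq2 test, 2 with the microglia score as a covariate, and 70 to 125 when 1 library was left out (70 without replicate 2 of APP SC). With control peptide 10 were called, 45 by DESeq2, and 4 to 17 when 1 library was left out (6 without replicate 3 and 17 without replicate 4 of WT SC, 6 and 4 without replicates 1 and 2 of APP SC). With inhibitor 34 were called, 61 by DESeq2, and 15 to 38 when 1 library was left out (21, 19 and 15 without replicates 1, 3 and 5 of WT NOX2, 15 and 17 without replicates 2 and 4 of APP NOX2). The cause of these shifts was not tested. Inhibitor and interaction counts were 0 throughout. A fit that leaves 1 library in APP SC assumes that it varies like the other groups.

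Ctss passed for genotype over both peptides whichever of the 17 libraries was left out (1.06 to 1.21). With the microglia covariate the estimate turned below 0 for Ctsb (-0.48), Ctsd (-0.14), Ctsz (-0.28), Ctsl (-0.21), Ctsh (-0.60), Ctsc (-0.28), Ctsk (-0.13), Cst3 (-0.39), Ctsw (-0.17), Napsa (-0.20), Grn (-0.34), Nagpa (-0.17), Hexa (-0.19), Dnase2a (-0.04), Gusb (-0.20), H2-DMb1 (-0.32) and H2-DMa (-0.06). Estimates near 0 changed sign when 1 library was left out: over both peptides Ctsa (-0.06 to 0.00, reached without replicate 1 of APP NOX2), Ctsk (-0.01 to 0.20) and Napsa (-0.03 to 0.32); with control peptide Ctsa (-0.04 to 0.03); with inhibitor Ctsb (-0.03 to 0.19), Ctsa (-0.10 to 0.01) and Ctsk (-0.12 to 0.09). The inhibitor estimates were followed in this way only for Ctss, Ctsd and Ctsk. Of these, Ctss (-0.15 to 0.02) and Ctsd (-0.19 to 0.06) changed sign in WT, and Ctsk (-0.43 to 0.17) in APP/PS1. The other members, some with inhibitor estimates nearer 0, were not followed for the inhibitor. All 40 mean levels by group moved by less than their SD with plain library size. No paired analysis was possible because the labels carry no replicate numbers. The replicate numbers used here were given in sample order within each group. The lowest depth behind a member was 33 counts, for Ctsk.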
